A study of Homo sapiens with 15 samples.

Results

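CDK inhibitors and pocket proteins were followed as 10 genes chosen by name, with earlier results of these data known. The genes were the CIP/KIP inhibitors CDKN1A, CDKN1B and CDKN1C, the INK4 inhibitors CDKN2A, CDKN2B, CDKN2C and CDKN2D, and the pocket proteins RB1, RBL1 and RBL2. They are 10 of the 57272 genes in the count table, and all 10 were among the 15799 genes kept after the filter on low counts. The RNA-seq data comprised 15 libraries of MRC-5 cells, a strain of human fetal lung fibroblasts, in 5 conditions with 3 libraries each. All cells carried a lentiviral vector with GFP and were transfected with an siRNA before collection, the young ones 4 days before. Young cells at population doubling 30 carried the empty vector with control siRNA, the TRF2 vector with control siRNA, or the empty vector with an siRNA pool against LMNB1. Replicatively senescent cells had been infected before senescence and received control siRNA, at population doubling 71 with the empty vector and 75 with TRF2. By the paper's methods young cells expressed TRF2 for days and senescent cells for many doublings. The length of TRF2 expression and senescence therefore cannot be told apart where young and senescent TRF2 cells are compared. TRF2, the product of TERF2, is a shelterin protein that protects telomeres, and LMNB1 encodes Lamin B1 of the nuclear lamina. The 6 senescent libraries were labelled as a reanalysis and the 9 young ones were not, so that deposit and senescence cannot be told apart. All cells are of 1 strain, which limits these groups as a model of senescence.

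Progression from G1 into S phase depends on cyclin D with CDK4 or CDK6 and on cyclin E with CDK2, which phosphorylate the pocket proteins and release E2F transcription factors. The INK4 proteins bind CDK4 and CDK6, whereas the CIP/KIP proteins bind complexes of cyclins with CDKs more broadly. In fibroblasts that senesce, p21 (CDKN1A) and p16INK4a (CDKN2A) are the inhibitors best known for holding the arrest, and RBL1 and RBL2 can join the MuvB core to form the DREAM repressor complex.

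Start site sequences are given for CDKN1A, for the neighbouring inhibitor genes CDKN2A and CDKN2B and for RBL1, whose window held both E2F sites searched for. The choice leaves out CDKN2C, the gene with the largest change in senescence. Each printed sequence is the 250 bases before an annotated start, 5′ to 3′ on the strand of the gene, from RefSeq on GRCh38.p14. Capitals mark E2F sites (TTTCGCGC or TTTGGCGC) and GC boxes (GGGCGG), each searched on both strands, so that CCGCCC is also a GC box. CDKN1A lies on the plus strand and the others on the minus strand.
CDKN1A, chr6:36678464-36678713: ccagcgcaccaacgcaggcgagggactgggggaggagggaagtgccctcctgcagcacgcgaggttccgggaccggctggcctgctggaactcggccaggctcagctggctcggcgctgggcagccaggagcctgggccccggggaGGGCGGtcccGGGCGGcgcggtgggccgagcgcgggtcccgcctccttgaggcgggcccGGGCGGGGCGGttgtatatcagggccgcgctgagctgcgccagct
CDKN2A, start of the p16INK4a transcript, chr9:21974858-21975107: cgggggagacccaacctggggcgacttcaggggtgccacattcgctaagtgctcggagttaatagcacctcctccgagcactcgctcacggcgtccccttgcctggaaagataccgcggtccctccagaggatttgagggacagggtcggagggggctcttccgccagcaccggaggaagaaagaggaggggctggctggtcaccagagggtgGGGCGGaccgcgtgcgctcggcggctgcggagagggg
CDKN2A, start of the p14ARF transcript, chr9:21995325-21995574: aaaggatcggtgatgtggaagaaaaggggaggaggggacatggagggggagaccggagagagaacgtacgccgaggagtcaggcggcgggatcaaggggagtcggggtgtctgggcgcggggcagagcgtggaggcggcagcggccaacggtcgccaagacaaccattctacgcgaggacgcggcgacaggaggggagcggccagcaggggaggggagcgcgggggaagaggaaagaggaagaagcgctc
CDKN2B, chr9:22009306-22009555: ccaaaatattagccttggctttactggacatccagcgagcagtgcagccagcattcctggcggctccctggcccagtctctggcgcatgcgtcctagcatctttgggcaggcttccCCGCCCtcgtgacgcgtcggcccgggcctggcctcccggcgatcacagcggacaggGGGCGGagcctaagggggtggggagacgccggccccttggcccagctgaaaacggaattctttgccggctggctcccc
RBL1, chr20:37095998-37096247: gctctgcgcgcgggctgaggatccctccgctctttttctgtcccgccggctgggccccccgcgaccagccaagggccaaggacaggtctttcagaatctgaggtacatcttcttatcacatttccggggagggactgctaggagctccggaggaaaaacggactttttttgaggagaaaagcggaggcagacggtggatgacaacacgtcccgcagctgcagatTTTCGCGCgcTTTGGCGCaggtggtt
RefSeq held 13 start windows for 9 of the genes, which were searched with 50 bases after the start included. The start site of the only RB1 window lay at 48476450 on chromosome 13, inside the gene (48303744 to 48599436), so the region before the main RB1 start was not searched. An E2F site of either form lay in 1.15% of the 35116 windows of all genes, and among the 13 windows only in that of RBL1, where the C form began at position -26 and the G form at -16 from the start. A GC box lay in 45% of all windows and in 8 of the 13. The CDKN1A window held 4 GC boxes, of which the last pair overlaps by a base. The windows of CDKN2B and of the p16INK4a start held 2 each, and that of the p14ARF start held none. CDKN2B lies upstream of the p14ARF start on the same strand, and the gene counts of CDKN2A pool p16INK4a and p14ARF. TATAAA occurred in 11.5% of all windows and in none of the 13. CCAAT occurred in 34.6% of all windows and in 4 of the 13, CACGTG in 7.26% and 2, and TTTGAA in 15.2% and 1. These matches are descriptions of the letters only.

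Total counts per library lay between 26725885 and 43116046. LMNB1 had 58.6 to 61.0 CPM (counts scaled to the library's total, normalized by TMM) in young empty-vector cells and 2.36 to 2.91 CPM with siLMNB1. TERF2 had 21.9 to 25.5 CPM in those controls, 128, 307 and 149 CPM in the 3 young TRF2 libraries and 210, 285 and 210 CPM in the senescent ones, so that the labels and the targeted genes go together. LMNB1 was low in senescent cells as well, with 4.6 to 5.65 CPM with the empty vector and 2.68 to 3.69 CPM with TRF2. It was called lower in both comparisons of senescent with young cells. All 8 fibroblast markers were detected in every condition, with summed levels of 20033 to 33387 CPM. The 8 markers of epithelial, endothelial, immune, smooth muscle and glial cells summed to between 0.587 and 4.11 CPM, and the part of any marker in the results was not tested. Only 3 of them passed the filter on low counts. The highest sums, in senescent cells, came mostly from CD14, with 39 to 110 counts per senescent library and 0 to 9 per young one. EPCAM, an epithelial marker, was called higher with siLMNB1, from a mean of 0.291 to 0.846 CPM (adjusted p = 0.0132, edgeR). Of the 8 fibroblast markers, 5 were higher and 2 lower with siLMNB1, and 7 were higher with TRF2 in senescent cells. In senescent against young cells 2 were higher (THY1 and PDGFRB) and 3 lower (COL3A1, LUM and VIM), with either vector. The mean of COL3A1 went from 1547 to 377 CPM with the empty vector. With the offsets for GC content and exon length described below, 2 were higher and 5 lower with the empty vector. Genes rich in G and C had higher relative counts in the senescent libraries: a rise of 10 points in the GC content of exons went with a log2 difference of 0.458 to 0.821 in the 6 senescent libraries and of -0.0049 to 0.13 in the 9 young ones, relative to the mean of the young empty-vector libraries. Senescent empty-vector replicate 3 had the steepest slope, 0.821. Each log2 fold change that involves senescent cells was therefore also computed with offsets for GC content and exon length. Those of the 10 genes that use senescent empty-vector cells were also computed without that replicate. Levels, family shares, the order of the conditions and the search for similar genes had no such correction, so they carry the GC trend. The study calls the libraries of a condition biological replicates. Neither the labels nor the methods name separate cultures, and p-values measure the spread between these libraries, which may be technical. A level in these bulk samples is an average over cells, in which fewer cells with an RNA and less RNA per cell cannot be told apart.

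Levels were compared between genes as CPM per kb of exon. In young empty-vector cells CDKN1A stood far above all others, at 555 ± 4.8 CPM per kb (SD, n = 3). RB1 followed at 12.8 ± 0.343, and the 4 INK4 genes lay close together, from 6.74 ± 0.203 for CDKN2C to 4.68 ± 0.465 for CDKN2D. CDKN1C was the lowest, at 1.79 ± 0.105 CPM per kb. In senescent empty-vector cells CDKN1A reached 1063 ± 122 CPM per kb, CDKN2A was the next at 11.5 ± 3.73 and CDKN2B followed at 10.9 ± 1.76, while CDKN2C (1.01 ± 0.19) and RBL1 (0.884 ± 0.247) were the lowest of the 10. By exon length CDKN2C was thus the highest of its family in young empty-vector cells and the lowest in senescent ones, but in young TRF2 cells CDKN2B (6.21) stood above CDKN2C (5.95), and with siLMNB1 CDKN2A (6.88) and CDKN2B (5.89) stood above it (3.65). The order depends on the length used. With the longest annotated transcript in place of all exons, CDKN2A stood second in young empty-vector cells as well, at 18.6 CPM per kb against 17.3 for RB1.

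**Figure D1:**
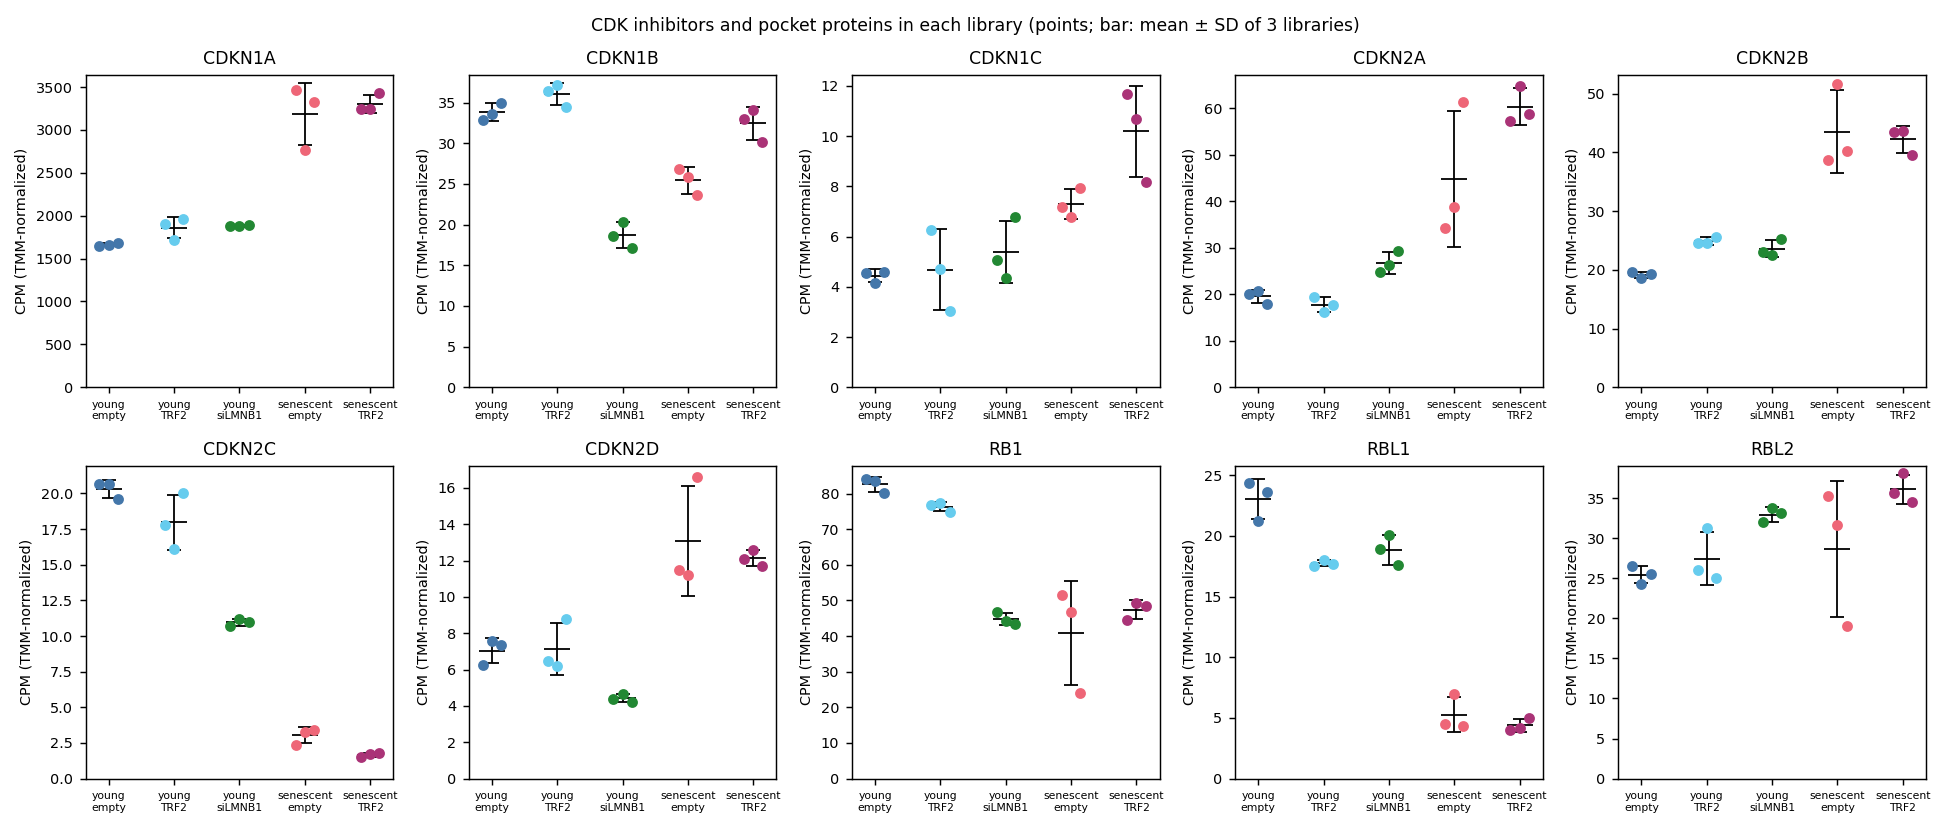
CPM (TMM-normalized, linear axis from 0) of each gene in each of the 15 libraries, with the mean and SD of the 3 libraries of a condition. Both senescent conditions lie above the 3 young ones for CDKN1A, CDKN2A, CDKN2B and CDKN2D and below them for CDKN2C and RBL1. For CDKN1C they lie above by little, with a lowest senescent value of 6.78 CPM and a highest young one of 6.77 CPM. Senescent empty-vector replicate 3 lies apart for CDKN2A (61.4 CPM), RB1 (24.1 CPM) and RBL2 (19.1 CPM).

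The comparison of senescent with young cells asked how replicative senescence alters the expression of these genes. With the empty vector, 5 of the 10 were higher in senescent cells and 4 were lower by edgeR's quasi-likelihood test at an adjusted p below 0.05, where 32.7% of the 15799 genes tested were higher and 31.9% lower. The higher genes were all inhibitors (CDKN1A, CDKN1C, CDKN2A, CDKN2B and CDKN2D), and the lower ones were 2 inhibitors (CDKN1B and CDKN2C) and 2 pocket proteins (RB1 and RBL1). With a fold threshold in addition (log2 of 1 or more in size), 5 genes were called (CDKN2A, CDKN2B, CDKN2C, RB1 and RBL1) beside 28.5% of all genes. Among cells expressing TRF2, 6 were higher and 3 lower, beside 28.2% and 30.1% of all genes, and 4 (CDKN1C, CDKN2A, CDKN2C and RBL1) passed the fold threshold beside 24% of all genes. The median log2 fold change of the 10 was 0.45 with the empty vector and 0.58 with TRF2, beside 0.02 and -0.02 over all genes tested. With the offsets for GC content and exon length the medians of the 10 were -0.03 and 0.19, and 7 genes were called in each comparison, 4 higher (CDKN1A, CDKN2A, CDKN2B and RBL2) and 3 lower (CDKN2C, RB1 and RBL1). With the same offsets 27.1% of all genes were higher and 30.6% lower with the empty vector, and 24.6% and 30.3% with TRF2.

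**Figure D2:**
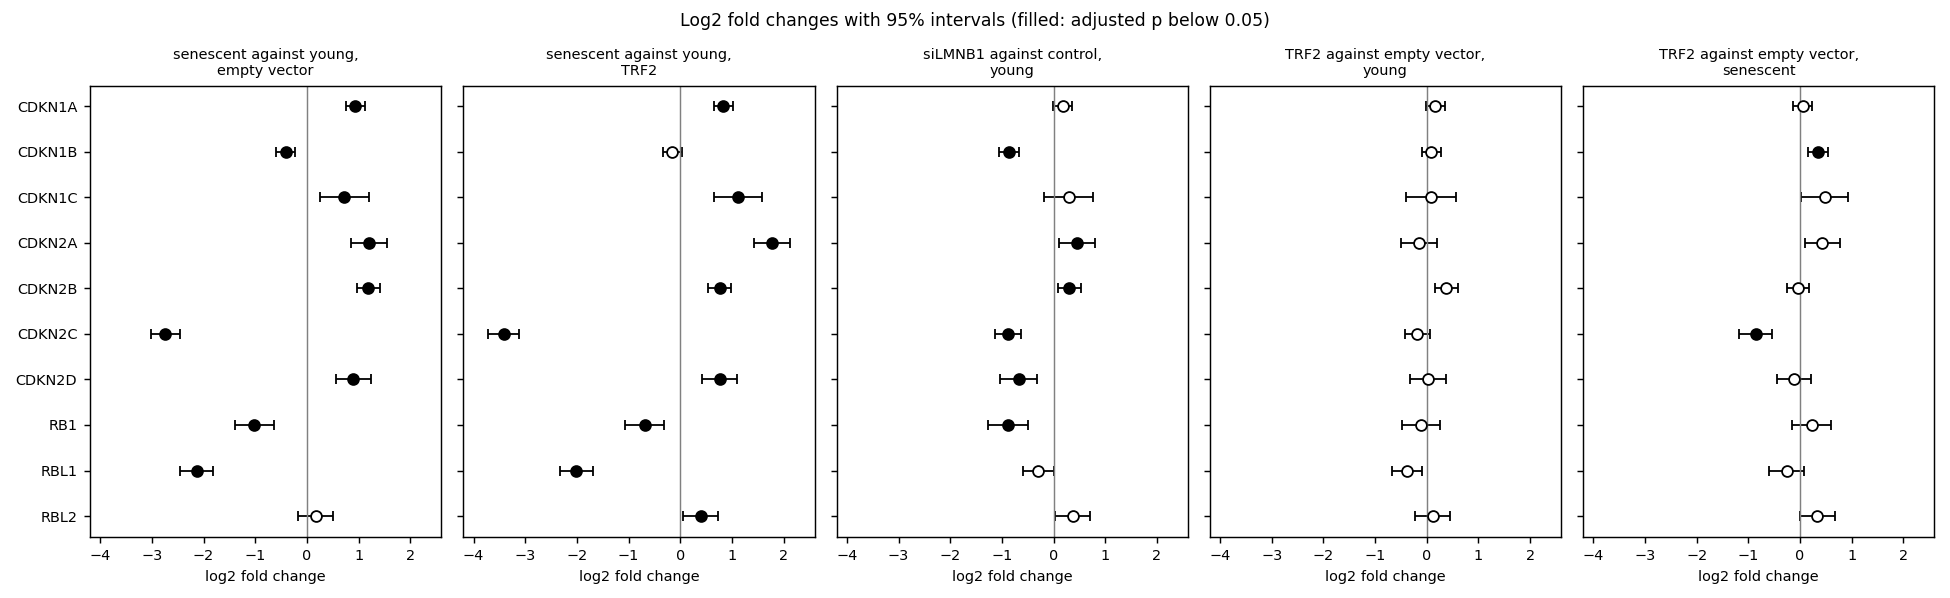
Log2 fold change of each gene with its 95% interval in 5 comparisons, filled where the adjusted p of edgeR's quasi-likelihood test was below 0.05. The changes of CDKN2C and RBL1 in both senescence comparisons lie below -2, and none of the 10 is filled for TRF2 in young cells.

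Among the CIP/KIP genes, CDKN1A, which encodes p21, an inhibitor of CDK2 complexes, had 1650, 1662 and 1678 CPM in the young empty-vector libraries and 3462, 2771 and 3324 CPM in the senescent ones. All senescent libraries lay above all young ones. CDKN1A rose by a log2 fold change of 0.94 ± 0.09 (SE; adjusted p = 1.2e-07, edgeR's quasi-likelihood test, Benjamini-Hochberg adjusted over all genes tested), which is 1.92-fold, and by 0.83 ± 0.09 with TRF2 (adjusted p = 5.5e-07). The offsets left smaller rises of 0.42 and 0.47 (adjusted p = 0.00255 and 9.3e-04, edgeR). CDKN1A made up 99.0% of the length-normalized counts of the 3 CIP/KIP genes in young empty-vector cells and 99.5% in senescent ones.

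CDKN1B encodes p27, which restrains cyclin E with CDK2 and is degraded through SKP2. Its level was 32.9, 33.6 and 35 CPM in young empty-vector libraries and 26.8, 25.9 and 23.6 CPM in senescent ones, with no overlap. It fell by 0.41 on the log2 scale (SE 0.09; adjusted p = 7.5e-04, edgeR), and the call was lost with the offsets (-0.01, adjusted p = 0.958). With TRF2 the difference was -0.15 ± 0.09 (adjusted p = 0.15, edgeR).

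CDKN1C encodes p57, is imprinted and is the richest in G and C of the 10, with 67.3% GC in its exons. Its level was 4.57, 4.14 and 4.61 CPM in young empty-vector libraries and 7.18, 6.78 and 7.94 CPM in senescent ones, and the groups did not overlap. With the empty vector the log2 fold change was 0.72 ± 0.22 (adjusted p = 0.01, edgeR) and 1.12 ± 0.22 with TRF2 (adjusted p = 3.3e-04). Both calls were lost with the offsets, to -0.45 (adjusted p = 0.0996) and 0.23 (adjusted p = 0.388), the first with the sign turned. The direction for CDKN1C therefore depends on how the GC trend of the senescent libraries is treated.

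The INK4 genes split in senescence. CDKN2A had 20.0, 20.6 and 18.0 CPM in young empty-vector libraries and 34.3, 38.7 and 61.4 CPM in senescent ones. The groups did not overlap, and replicate 3 was the high senescent library. CDKN2A rose by 1.20 ± 0.16 (log2 fold change ± SE; adjusted p = 9.7e-06, edgeR), and by 0.88 without replicate 3 (adjusted p = 3.83e-07) and 0.73 with the offsets (adjusted p = 1.4e-05). With TRF2, young libraries had 19.3, 16.1 and 17.7 CPM and senescent ones 57.3, 64.8 and 58.8 CPM, a log2 fold change of 1.77 ± 0.17 (adjusted p = 1.5e-07, edgeR), or 3.41-fold. CDKN2A shares 15.3% of its exon bases with the antisense gene CDKN2B-AS1, which had 3 to 6 counts per library in young and 5 or 6 in senescent empty-vector cells, against 485 to 1894 counts for CDKN2A.

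CDKN2B, the neighbouring gene, encodes p15, an inhibitor known for its induction by TGF-beta. It had 19.6, 18.6 and 19.2 CPM in young empty-vector libraries and 38.7, 51.6 and 40.2 CPM in senescent ones. Again no senescent library reached down to the young ones. Its rise of 1.19 ± 0.10 (adjusted p = 6.5e-08, edgeR) was 2.28-fold. With TRF2 it was 0.76 ± 0.10 (adjusted p = 8.6e-06), from 24.5, 24.5 and 25.6 CPM to 43.4, 43.6 and 39.6 CPM. CDKN2B, with 45.1% GC, rose by 1.39 and 0.93 with the offsets.

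CDKN2C, which encodes p18, went the other way, with the largest change of the 10 genes in both senescence comparisons. It had 20.7, 20.7 and 19.6 CPM in young empty-vector libraries and 2.38, 3.30 and 3.43 CPM in senescent ones, 528 to 704 counts against 64 to 106. It fell by 2.74 on the log2 scale (SE 0.13; adjusted p = 5.4e-11, edgeR), which is 6.68-fold, and with TRF2 its log2 fold change was -3.42 ± 0.14 (adjusted p = 6.1e-12), from 17.8, 16.1 and 20.0 CPM to 1.53, 1.69 and 1.80 CPM. No libraries overlapped, and the offsets gave -3.30 and -3.78. CDKN2C shares 20.4% of its exon bases with an unnamed gene on the opposite strand (ENSG00000290102), and whether reads were assigned by strand is not given in the sources used here.

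CDKN2D, which encodes p19, had 6.24, 7.55 and 7.33 CPM in young empty-vector libraries and 11.5, 11.2 and 16.6 CPM in senescent ones. The groups lay apart, with replicate 3 the highest. The log2 fold change was 0.90 ± 0.16 (adjusted p = 1.5e-04, edgeR), 0.67 without replicate 3 (adjusted p = 0.000407) and 0.76 ± 0.16 with TRF2 (adjusted p = 6.6e-04). Like CDKN1C, the gene is rich in G and C (62.1%), and both calls were lost with the offsets (-0.04, adjusted p = 0.783, and 0.14, adjusted p = 0.359). The makeup of the family moved accordingly. CDKN2C held 31.8% ± 0.744 (SD, n = 3) of the length-normalized INK4 counts in young empty-vector cells and 3.13% ± 0.299 in senescent ones, while CDKN2A went from 23.7% ± 1.18 to 35.4% ± 5.38 and CDKN2B from 22.5% ± 1.04 to 34.5% ± 7.4. With the longest transcript as length the shares differed in size, with CDKN2C going from 19.8% to 1.65%, CDKN2A from 52.3% to 65.7% and CDKN2B from 14% to 18.3%.

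**Figure D3:**
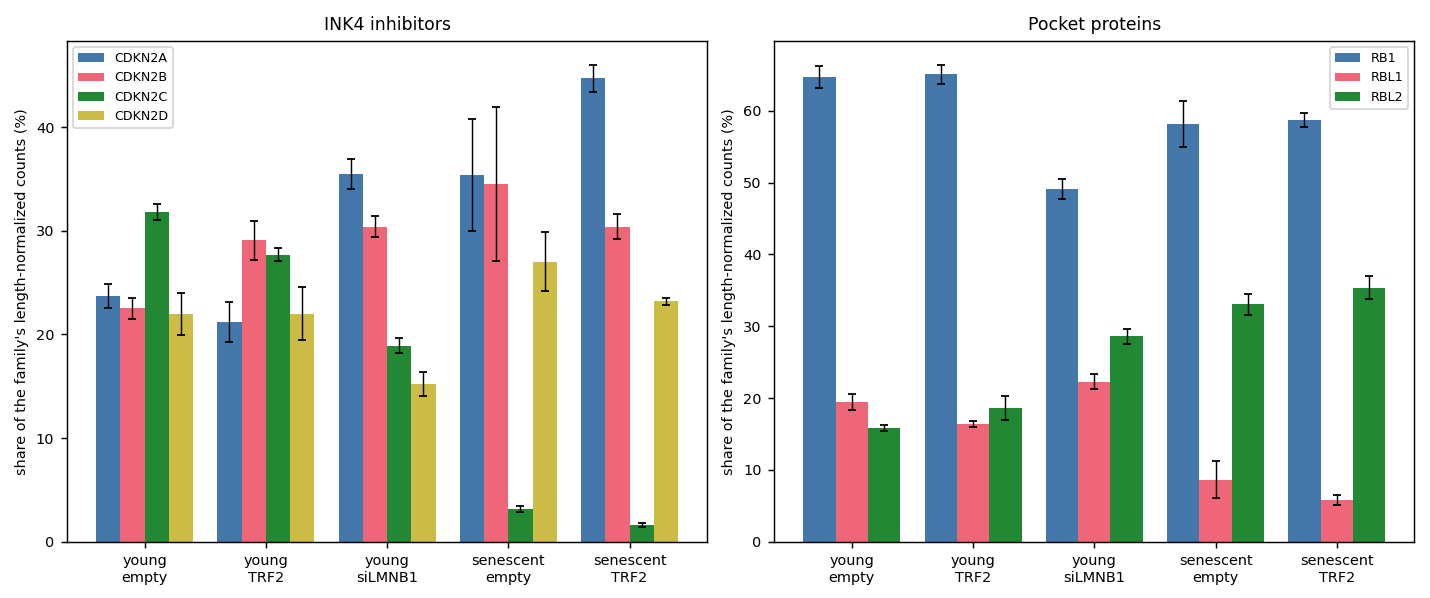
Share of each gene in the summed CPM per kb of exon of its family, in percent, as the mean and SD of 3 libraries. With the length of all exons, the CDKN2C share falls from 31.8% in young to 3.13% in senescent empty-vector cells, and the RBL1 share from 19.5% to 8.64%.

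The 3 pocket proteins separated as well. RB1, the retinoblastoma protein that holds the activating E2F factors, had 84.2, 83.4 and 80.1 CPM in young empty-vector libraries and 51.5, 46.7 and 24.1 CPM in senescent ones. All senescent values lay below all young ones, the lowest in replicate 3. RB1 fell by 1.02 on the log2 scale (SE 0.18; adjusted p = 1.2e-04, edgeR), by 0.77 without replicate 3 (adjusted p = 9.28e-09) and, with the offsets, by 0.46 (adjusted p = 0.00107). With TRF2 it fell by 0.68 (SE 0.18; adjusted p = 0.0035), and by 0.29 with the offsets (adjusted p = 0.0215). RB1 is the poorest in G and C of the 10 genes, with 36.9%.

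RBL1 encodes p107, which pairs with repressive E2F factors and whose gene is a known E2F target. It had 24.4, 21.2 and 23.6 CPM in young empty-vector libraries and 4.50, 6.96 and 4.34 CPM in senescent ones. With TRF2 it had 17.5, 18.0 and 17.7 CPM in young libraries and 4.01, 4.14 and 4.99 CPM in senescent ones. Neither pair of groups overlapped. RBL1 fell by 2.13 (SE 0.15; adjusted p = 5.1e-09, edgeR) and 2.01 (SE 0.15; adjusted p = 1.0e-08) on the log2 scale, 4.38-fold and 4.04-fold, and the offsets gave -1.66 and -1.69. This is the gene whose start window holds both forms of the E2F site, and whether the sites bear on the fall was not tested.

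RBL2 encodes p130, the pocket protein of quiescent cells and of DREAM. It had 26.5, 24.3 and 25.6 CPM in young empty-vector libraries and 35.3, 31.6 and 19.1 CPM in senescent ones. Of the senescent libraries 2 lay above the young ones and replicate 3 below them. The log2 fold change was 0.17 ± 0.16 (95% interval -0.17 to 0.51; adjusted p = 0.357, edgeR), and without replicate 3 it was 0.38 (adjusted p = 0.00123), with the offsets 0.47 (adjusted p = 0.00122). With TRF2, the young libraries had 26.0, 31.3 and 25.1 CPM and the senescent ones 35.7, 38.1 and 34.5 CPM, a rise of 0.39 ± 0.16 (adjusted p = 0.0424, edgeR). That call was lost without any library of the pair except young TRF2 replicate 2, with adjusted p of 0.0797, 0.125 and 0.064 without senescent TRF2 replicates 1, 2 and 3, and of 0.13 and 0.142 without young TRF2 replicates 1 and 3. RBL2 shares 16.4% of its exon bases with genes on the opposite strand, among them AKTIP, which had 415 to 550 counts in young and 372 to 514 in senescent empty-vector libraries. RBL1 went from 19.5% ± 1.11 (SD, n = 3) of the length-normalized pocket protein counts in young empty-vector cells to 8.64% ± 2.56 in senescent ones and RBL2 from 15.8% ± 0.424 to 33.1% ± 1.46. RB1 kept the largest share, with 64.7% ± 1.53 and 58.2% ± 3.19. A share depends on all genes of the family. With the counts as deposited, RB1 and RBL1 fell and RBL2 itself was not called in these cells.

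**Figure D4:**
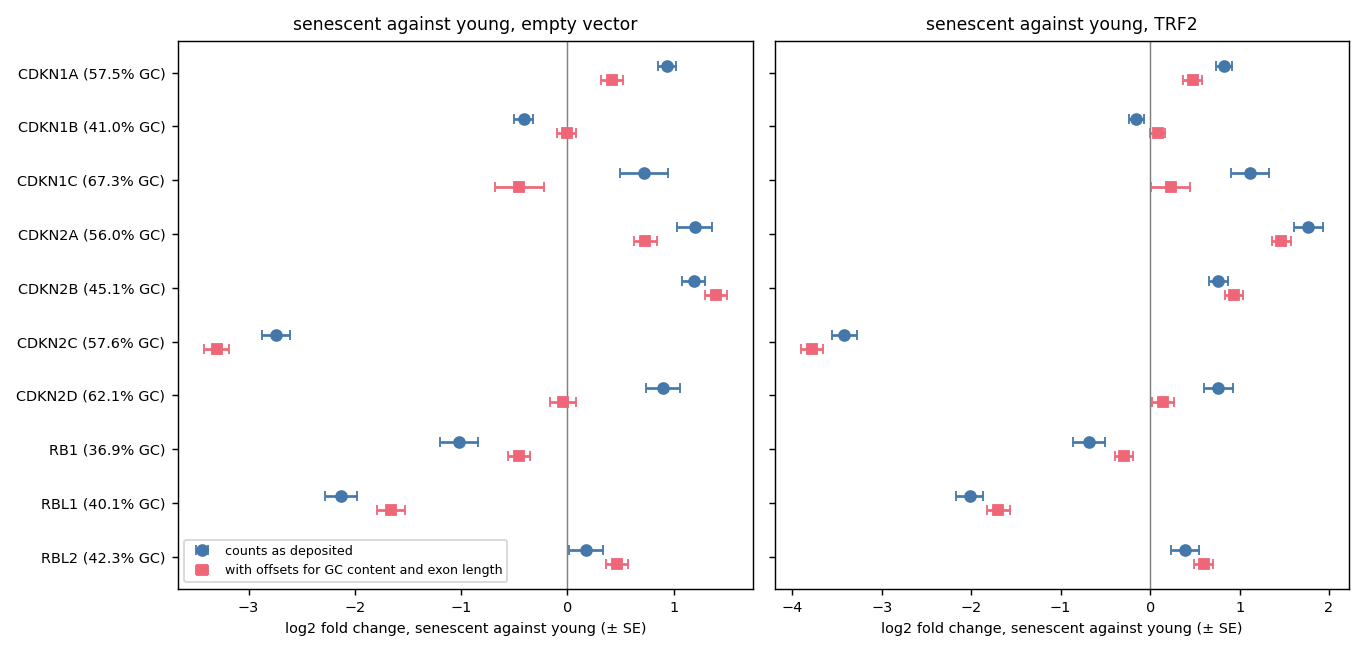
Log2 fold change ± SE between senescent and young cells with the counts as deposited (circles) and with offsets for GC content and exon length (squares), for cells with the empty vector (left) and with TRF2 (right), on axes of different range. CDKN1C and CDKN2D, the genes with 67.3% and 62.1% GC, move from 0.72 and 0.90 to -0.45 and -0.04 with the empty vector, whereas CDKN2C and RBL1 stay far below 0.

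The genes that act with these proteins were counted from lists fixed by name, with earlier results of these data known. Of 8 cyclins, 4 rose and 4 fell in senescent empty-vector cells, and the same 8 calls were made with the offsets. CCND2 rose by 3.19 ± 0.17 on the log2 scale (adjusted p = 1.3e-10, edgeR), from a mean of 13.4 to 122 CPM, and CCND1 by 1.01 ± 0.10. The mitotic cyclins CCNA2 and CCNB2 fell by 3.07 and 2.73. All 7 CDKs and CDC25 phosphatases were lower, CDC25C by -2.66 and CDK1 by -2.60, while CDK4 and CDK6, which the INK4 proteins bind, had log2 fold changes of -0.36 and -0.68. CDK6 had 155, 134 and 59.5 CPM in the senescent libraries, the lowest in replicate 3, and 169 to 198 CPM in the young ones. Among TRF2 cells CDK6 was not called and the other 6 were lower. All 15 E2F targets were lower, with a median of -2.03 and with MKI67 and TYMS at -3.27 and -3.16, and all 15 were also lower with the offsets and among TRF2 cells.

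Of the 10 E2F and DP genes, 1 rose and 5 fell. E2F2 and E2F8 fell by 3.21 and 3.07, and E2F4, a partner of p107 and p130, rose by 0.48 (adjusted p = 7.2e-04, edgeR), a call lost with the offsets (-0.16, adjusted p = 0.0613). Of the 7 genes of DREAM, MuvB and its partners, 6 fell, led by MYBL2 (-2.78) and FOXM1 (-2.39), and LIN37 was called higher on 1 to 33 counts per library in groups that overlapped, a call lost with the offsets (adjusted p = 0.188). Of 11 regulators of the INK4 locus, 6 rose and 5 fell. The polycomb subunit gene CBX7 and the demethylase gene KDM6B rose by 2.06 and 1.27 and the polycomb genes EZH2 and RNF2 fell by 2.36 and 0.99, and with the offsets 3 rose and 3 fell, these 4 among them. Among the regulators of the CIP/KIP genes CKS1B fell by 1.64, SKP2 by 0.71 and MDM2 by 0.62. With the offsets SKP2 and MDM2 were no longer called.

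Lowering LMNB1 in young cells asked whether loss of Lamin B1 alone moves these genes. Of the 10, 2 were higher with siLMNB1 (CDKN2A and CDKN2B) and 4 lower (CDKN1B, CDKN2C, CDKN2D and RB1) by edgeR's quasi-likelihood test, beside 16.4% and 16.1% of all genes. With a log2 threshold of 0.58 in either direction in addition the 4 lower genes remained, beside 18.3% of all genes. The median of the 10 was -0.06, beside 0.04 over all genes. The controls are the same 3 young empty-vector libraries as in the senescence comparison.

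CDKN2A had 24.7, 26.3 and 29.3 CPM with siLMNB1, above all 3 controls (18.0 to 20.6 CPM), a log2 fold change of 0.45 ± 0.16 (adjusted p = 0.0442, edgeR). CDKN2B had 23.0, 22.5 and 25.2 CPM against 18.6 to 19.6 CPM, a log2 fold change of 0.30 ± 0.10 (adjusted p = 0.0349). Both rises were small beside those in senescent cells, and both rest on the full set of libraries. Without single libraries the adjusted p of CDKN2A lay between 0.0584 and 0.15, and that of CDKN2B between 0.0474 and 0.135, called only without siLMNB1 replicate 2. With DESeq2's size factors in the edgeR fit CDKN2A had an adjusted p of 0.051, and without the filter on low counts CDKN2B had one of 0.0873. CDKN1A had 1875, 1875 and 1897 CPM, above all 3 controls, but its log2 fold change of 0.18 ± 0.09 was not called (adjusted p = 0.126, edgeR). When only these 6 libraries were fitted, 9 of the 10 genes were called, with CDKN1A and RBL2 higher and RBL1 lower in addition (adjusted p = 0.00033, 4.59e-05 and 0.00322, edgeR), beside 8019 of all genes against 5137.

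The 4 lower genes remained called when any single library was left out. CDKN1B had 18.6, 20.3 and 17.1 CPM with siLMNB1 and fell by 0.86 (SE 0.09; adjusted p = 3.1e-06, edgeR), so that this condition had the lowest CDKN1B of all 5. CDKN2C had 10.7, 11.2 and 11 CPM and fell by 0.89 (SE 0.12; adjusted p = 3.3e-05), to a level between those of the young controls and the senescent cells with no overlap on either side. RB1 had 46.7, 44.3 and 43.5 CPM and fell by 0.88 (SE 0.18; adjusted p = 0.00132), into the range of the senescent empty-vector libraries. CDKN2D had 4.36, 4.67 and 4.24 CPM and fell by 0.67 (SE 0.17; adjusted p = 0.00587), below every other library, whereas in senescent cells it was higher with the counts as deposited. RBL1, with 18.9, 20.1 and 17.6 CPM, had a log2 fold change of -0.29 ± 0.14 (adjusted p = 0.117), and RBL2, with 32.0, 33.8 and 33.1 CPM, one of 0.37 ± 0.16 (adjusted p = 0.0831, and 0.0115 with the offsets). CDKN1C had 5.08, 4.36 and 6.77 CPM and overlapped the controls, with a log2 fold change of 0.29 ± 0.22 (adjusted p = 0.343).

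Of the lists, all 15 E2F targets were lower with siLMNB1 as well, with a median of -0.68 beside -2.03 in senescence. Of the 8 cyclins 1 was higher, CCNE1 at 0.58, and 6 lower, among them CCND1 (-0.90) and CCND2 (-0.62). In senescent cells 4 cyclins had risen. Of these, CCND1 and CCND2 were lower with siLMNB1, CCNE1 was higher, and CCND3 was called, as lower, only with the offsets. Of the 7 CDK and CDC25 genes 4 were lower (CDC25C, CDK1, CDC25B and CDC25A). E2F3 fell by 1.68, E2F8 by 1.01 and TFDP1 by 0.28, and E2F5 and TFDP2 rose by 0.74 and 0.33. In DREAM and MuvB, FOXM1, MYBL2 and LIN9 fell and RBBP4 rose. Among the INK4 locus regulators KDM6B and CBX7 rose by 0.73 and 0.64 and RNF2, EZH2 and BMI1 fell by 1.24, 0.83 and 0.24. Among the CIP/KIP regulators FOXO3, a transcription factor known to act on CDKN1B, fell by 1.04 and CKS1B by 1.01.

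**Figure D5:**
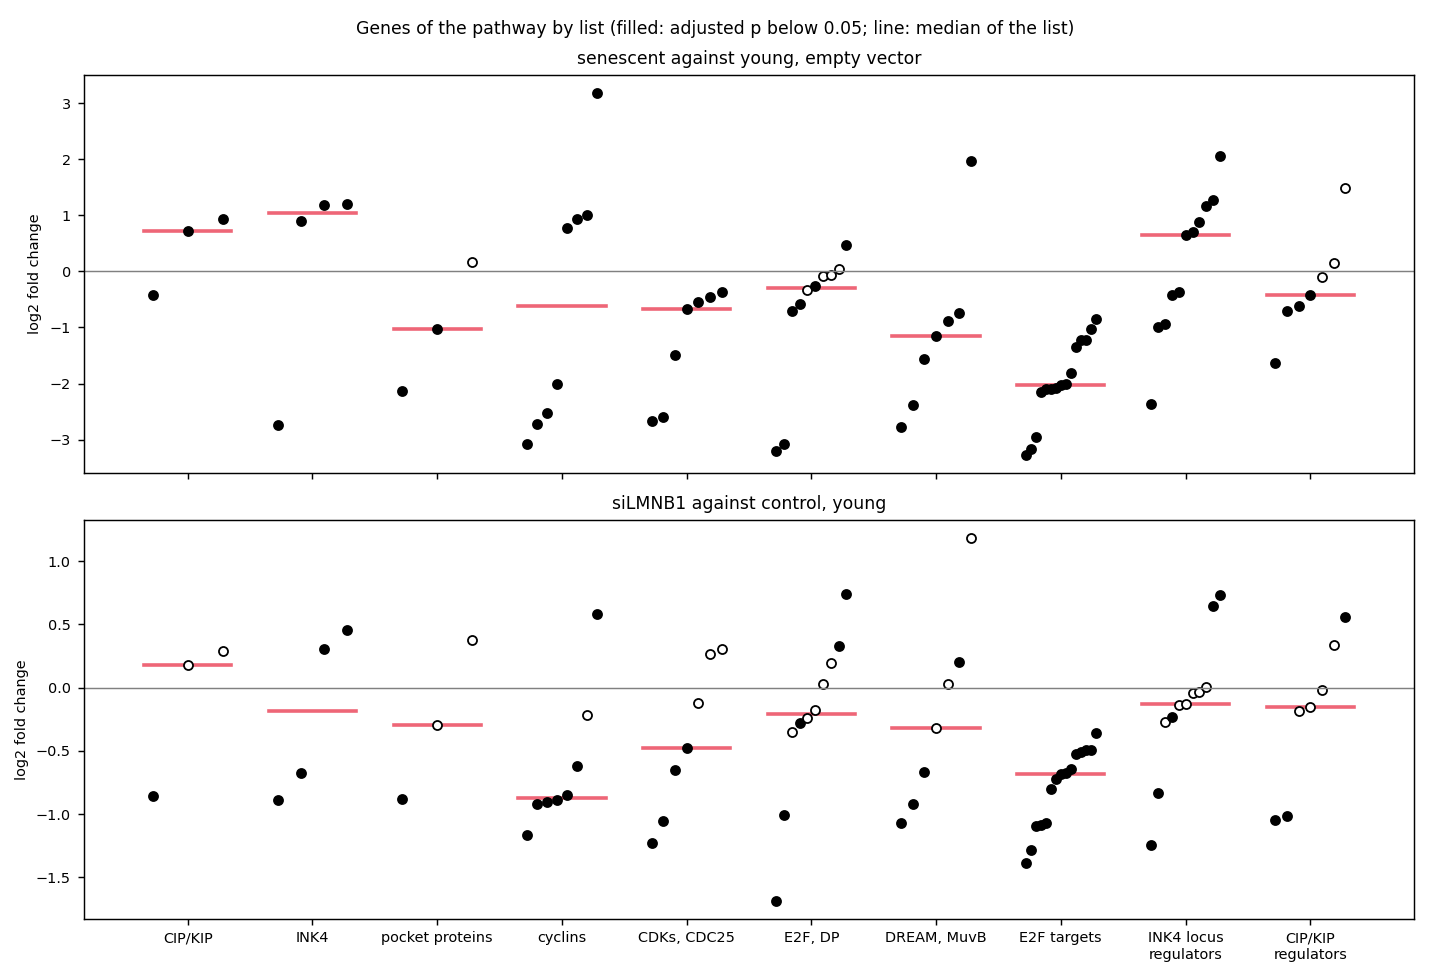
Log2 fold change of every tested gene of the 3 families and of 7 pathway lists in senescent against young empty-vector cells (top) and with siLMNB1 in young cells (bottom), on axes of different range, filled where the adjusted p was below 0.05, with the list median as a line. All 15 E2F targets are filled and below 0 in both, with medians of -2.03 and -0.68.

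The TRF2 comparisons asked whether the level of TRF2 alters these genes in either state. In young cells none of the 10 was called, beside 0.177% of all genes by edgeR's quasi-likelihood test, and none by DESeq2. CDKN2B and RBL1 had an unadjusted p below 0.05. CDKN2B had 24.5, 24.5 and 25.6 CPM with TRF2, all above the controls, with a log2 fold change of 0.38 ± 0.10 (adjusted p = 0.189, edgeR), and RBL1 had 17.5, 18.0 and 17.7 CPM, all below them, with -0.38 ± 0.14 (adjusted p = 0.356). CDKN1A (1721 to 1960 CPM) and RB1 (74.9 to 77.3 CPM) also lay apart from the controls, with log2 fold changes of 0.16 ± 0.09 and -0.11 ± 0.18 (adjusted p = 0.578 and 0.914). The other 6 genes overlapped the controls, with log2 fold changes from -0.18 for CDKN2C to 0.11 for RBL2. When only the libraries compared were fitted, CDKN2B and RBL1 were called (adjusted p = 0.0173 and 0.0265, edgeR). No gene of the 7 pathway lists was called in young cells either, except CDC25A with the offsets (-0.53, adjusted p = 0.0395, edgeR).

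In senescent cells CDKN1B was higher with TRF2 and CDKN2C lower, beside 4.87% of all genes higher and 6.41% lower by edgeR's quasi-likelihood test. CDKN1B had 33.0, 34.1 and 30.2 CPM with TRF2, all above the 23.6 to 26.8 CPM of the empty vector, and rose by 0.35 ± 0.09 (adjusted p = 0.02, edgeR). The call was lost with the offsets (0.17, adjusted p = 0.202), without the filter on low counts (adjusted p = 0.0572), where CDKN1C and CDKN2A were called higher instead, without senescent TRF2 replicate 1 (adjusted p = 0.0763) and without replicate 2 (adjusted p = 0.0899). CDKN2C fell by 0.86 (SE 0.15; adjusted p = 0.00247), on 48, 53 and 63 counts with TRF2 against 64, 89 and 106 without, and by 0.67 with the offsets (adjusted p = 0.00486). Neither gene was called when only the senescent libraries were fitted (adjusted p = 0.205 and 0.113). CDKN2A had 57.3 to 64.8 CPM with TRF2 and a range of 34.3 to 61.4 CPM without, a log2 fold change of 0.43 ± 0.16 (adjusted p = 0.0958), which without empty-vector replicate 3 was 0.73 (adjusted p = 0.000143) and with the offsets 0.58 (adjusted p = 0.00124). CDKN1C had 11.7, 10.7 and 8.18 CPM with TRF2, above all 3 libraries without it, and a log2 fold change of 0.48 ± 0.21 (adjusted p = 0.155, and 0.0283 with the offsets). The other 6 genes overlapped, from -0.26 ± 0.16 for RBL1 to 0.33 ± 0.16 for RBL2. In the lists, 12 of the 15 E2F targets were lower with TRF2, beside 6.41% of all genes, and none was higher. With the offsets 9 were lower, beside 8.26% of all genes. When only the senescent libraries were fitted, no more than 2 of all genes were called, so that most of these calls were lost. The cells with TRF2 were collected at population doubling 75 and those without at 71, so that TRF2 and the added doublings cannot be told apart.

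Whether the senescence change differed between the vectors was tested as the interaction. None of the 10 was called, beside 1.13% of all genes by edgeR's quasi-likelihood test, and none by DESeq2. CDKN2A, CDKN2B and CDKN2C had an unadjusted p below 0.05, with differences in log2 fold change (TRF2 minus empty vector) of 0.57 ± 0.23, -0.42 ± 0.15 and -0.68 ± 0.19 (adjusted p = 0.241, 0.176 and 0.106, edgeR). For CDKN2A the difference was called with the offsets (0.74, adjusted p = 0.0158) and without senescent empty-vector replicate 3 (0.89, adjusted p = 0.00281), settings in which 328 and 341 of all genes were called. For CDKN2B and CDKN2C it was called without empty-vector replicate 1 (-0.50 and -0.82, adjusted p = 0.0278 and 0.00597), where 2089 of all genes were called, against 179 with all libraries.

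Across the 5 conditions the order of the mean CPM was the same for CDKN1A and CDKN1C: senescent TRF2, senescent empty vector, siLMNB1, young TRF2 and young empty vector. For CDKN1A the ranges of the senescent conditions overlapped each other, as did those of siLMNB1 and young TRF2. For CDKN1C the range of young TRF2 overlapped those of siLMNB1 and of the young empty vector, so the order of its young conditions is not resolved. Its senescence change with the empty vector also turned sign with the offsets (-0.45). CDKN2C had the clearest order, with young empty vector, young TRF2, siLMNB1, senescent empty vector and senescent TRF2 from high to low, where only the first pair overlapped. For RB1 siLMNB1 stood between the senescent conditions, its range overlapping those of both. For RBL2 it stood between them as well, senescent TRF2 was the highest, and the other 4 conditions each overlapped their neighbours in the order.

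The genes most like CDKN1A, CDKN2A, CDKN2B and RBL1 were found among 13185 tested protein-coding genes by the root mean square difference of centred log2 CPM over the 15 libraries, as a description. For CDKN1A they were SARAF, TMEM59 and SNX33, at 0.0698 to 0.0848. For CDKN2A they were C1orf122, IGSF8 and CALHM2, at 0.197 to 0.203, and for CDKN2B they were CBX6, SHC1 and TSC2, at 0.123 to 0.125. For RBL1 they were C18orf54, TIMELESS and MCM2, at 0.136 to 0.169, of which TIMELESS and MCM2 are replication genes and MCM2 belongs to the list of E2F targets. The CDK inhibitors and pocket proteins themselves were left out of the ranking. CDKN2A and CDKN2B, neighbours on chromosome 9, could therefore not appear in each other's lists, and their likeness was not tested.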

How the data were processed

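The 10 genes and the gene lists were chosen with earlier results of these data known. RNA of 15 MRC-5 libraries in 5 conditions was sequenced. The authors used Trimmomatic for trimming and STAR for mapping to GRCh38, and the deposited values are raw counts per gene. The annotation release and strand setting of the counting are not given in the sources used here. Groups and replicate numbers came from the labels.

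After filterByExpr and TMM normalization, all 15 libraries entered 1 model of edgeR 4.0.16 (R 4.3.3) with a mean for each condition, so that they share 1 estimate of the spread. Contrasts were tested by the quasi-likelihood test of edgeR, Benjamini-Hochberg adjusted over 15799 genes, at an adjusted p below 0.05. The fold thresholds followed the study (log2 of 1, and 0.58 for siLMNB1). Total counts of 26725885 to 43116046 per library put 48 or more counts behind every value of the 10 genes. Exon length, GC content and overlaps came from GENCODE 44, start windows from RefSeq on GRCh38.p14 (13 windows for 9 of the 10 genes). Offsets came from loess curves of span 0.3 with a prior count of 1. Alternatives were these offsets, DESeq2 1.42.0 and its size factors, no filter, only the libraries compared, a replicate block and leaving out each library. The scripts were tested on simulated data.

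Same-numbered replicates were not taken as pairs: their deviations from the group means correlated by -0.105 to 0.067. The genes named were the 10, LMNB1, TERF2, MKI67, the 2 largest rises and 2 largest falls of each list in senescent against young empty-vector cells among genes with an adjusted p below 0.05, every gene counted where a list had 5 or fewer, and the 3 genes most like CDKN1A, CDKN2A, CDKN2B and RBL1. AKTIP, CD14 and EPCAM, and CDK4 and CDK6 in senescence, were named after their values were seen. Tables and figures were made in Python 3.11.15 (numpy 2.4.6, pandas 2.3.3, matplotlib 3.10.9). A gene of the list of CIP/KIP regulators is not reported here.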

Additional observations from a re-analysis of the deposited data

How the results depend on the processing

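The number of the 10 genes called in each comparison stayed within 1.5 times of its value with DESeq2, with its size factors, without a filter and with the offsets, except as stated here. With the fold threshold in addition, 5 genes were called in senescent against young empty-vector cells, 4 in senescent against young TRF2 cells and 0 for TRF2 in senescent cells. When only the libraries compared were fitted, 2 were called for TRF2 in young cells and 0 in senescent cells. For the interaction, 1 gene was called (CDKN2A) without a filter, with the offsets for GC content and exon length and with the replicate block and the offsets together. Leaving out single libraries gave 9 to 10 genes for senescence with the empty vector (10 without senescent empty-vector replicate 3), 8 to 9 with TRF2, 4 to 5 for siLMNB1, 0 for TRF2 in young cells, 1 to 3 for TRF2 in senescent cells (1 without TRF2 replicate 1 or 2) and 0 to 2 for the interaction (2 without empty-vector replicate 1, 1 without replicate 3). Over all genes tested, the counts of called genes moved most for TRF2 in young cells (28, and 256 without a filter, 138 with DESeq2 and 474 with only the libraries compared), for TRF2 in senescent cells (1782, and 2 with only the libraries compared) and for the interaction (179, and 955, 487 and 8, and 2089 without senescent empty-vector replicate 1), and reached 8019 in place of 5137 for siLMNB1 with only the libraries compared.

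The replicate block, where the numbers were not shown to pair samples, gave 9, 9, 6, 0, 2 and 0 genes in the 6 comparisons, the numbers found without it. The offsets turned the sign of the log2 fold change for CDKN1C (-0.45) and CDKN2D (-0.044) in senescence with the empty vector, for CDKN1B (0.083) in senescence with TRF2, for CDKN2D with TRF2 in young (-0.010) and senescent (0.17) cells, and in the interaction for CDKN1A (0.058), CDKN2D (0.18) and RBL1 (-0.036). With the replicate block and the offsets these were -0.46, -0.041, 0.083, -0.0082, 0.17, 0.067, 0.18 and -0.034. Without single libraries, values not called turned sign for RBL2 in senescence with the empty vector (-0.013 to 0.38), for CDKN1C (-0.21 to 0.31) and CDKN2D (-0.15 to 0.12) with TRF2 in young cells, for CDKN1A (-0.036 to 0.12), CDKN2B (-0.12 to 0.10), CDKN2D (-0.21 to 0.10) and RB1 (-0.045 to 0.43) with TRF2 in senescent cells and for CDKN2D in the interaction (-0.23 to 0.10). The cause of these shifts was not tested. Of the log2 fold changes and counts left out library by library, 385 of 420 kept direction and side of the threshold, and 372 of 420 did so under the other alternatives. Of the 50 levels per kb, 44 moved by less than the SD with library totals in place of TMM and 16 with the longest transcript as length. With 3 libraries a condition, small differences such as those of siLMNB1 on CDKN2A and CDKN2B stay near the threshold.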

Other observations

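At the CDKN2A and CDKN2B locus the antisense gene CDKN2B-AS1 was near the limit of detection, with 3 to 6 counts in young and 5 to 6 in senescent empty-vector libraries, 4 to 13 in young and 10 to 17 in senescent TRF2 libraries and 3 to 10 with siLMNB1. CDKN2A-DT, a divergent transcript at the same locus, had 0 to 3 counts in every library, and RB1-DT had 0 to 4. These genes did not enter a comparison.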
